A study of Homo sapiens with 6 samples.

Results

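The interferon receptors and the Janus kinases (JAKs) that signal from them were followed in 8 genes: IFNAR1, IFNAR2, IFNGR1, IFNGR2, IL10RB, JAK1, JAK2 and TYK2. They were chosen on the difference in log2 signal between the clones of the study: the receptor genes on chromosome 21 had been seen to differ, and their partners on other chromosomes and JAK2 on chromosome 9 were added to set beside them. Every probe set that names 1 of these genes and no other was taken, which gave 21 of the 54675 probe sets, for 8 of the 19775 genes on the array. Chromosome 21 carries 4 of the genes with 9 probe sets, chromosome 9 carries JAK2 with 3, and IFNGR1 (chromosome 6), JAK1 (chromosome 1) and TYK2 (chromosome 19) share the other 9. A mean log2 of at least 5 over the arrays was reached by 16 of the 21 probe sets. Of the 5 that lay lower, 3 belong to JAK2 and 2 to JAK1.

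The samples were clones of HCA-7, an established human colorectal cancer cell line. One clone, labelled cc3 and grown as cystic colonies, and another, labelled sc1 and grown as spiky colonies, were kept in type 1 collagen gels in 12-well dishes without any further treatment named in the labels. Total RNA of the middle gel layer, which holds the cells, was taken on day 5, 10 and 15 and hybridised to Affymetrix U133 Plus 2.0 arrays, 1 for each clone on each day and 6 in all. With 1 clone for each shape, a difference between clones and a difference between colony shapes cannot be told apart. The days of a clone are its only repeats (n = 3), and the labels name no separate cultures, so a p-value here reflects the array-to-array spread alone, and that may be technical. All levels are log2 signals of the robust multi-array average (RMA), in which 1 unit is a doubling. The brightness of different probe sets depends on their sequence, so levels were compared between arrays and never between genes.

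Type 1 interferons (alpha and beta) bind a receptor made of IFNAR1 and IFNAR2, and interferon gamma binds a receptor made of IFNGR1 and IFNGR2. These chains have no enzyme activity of their own: TYK2 sits on IFNAR1, JAK1 on IFNAR2 and IFNGR1, and JAK2 on IFNGR2, and the kinases phosphorylate STAT transcription factors that switch on antiviral and antigen presentation genes. IL10RB is the shared chain of the receptors for interleukin 10, interleukin 22 and the interferon lambdas, and it too works through TYK2. IFNAR2, IL10RB, IFNAR1 and IFNGR2 lie next to each other on chromosome 21.

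The promoters of 4 members are shown to set genes that differed between the clones beside a gene whose clones overlapped: IFNAR1 and IL10RB for the chromosome 21 cluster, JAK2 for chromosome 9 and TYK2 for a partner kinase elsewhere. Each is the 250 bases before the outermost start of the gene in RefSeq (assembly GRCh38.p14), written 5′ to 3′ on the gene's strand. They lie at chr21:33324145-33324394 (plus strand, IFNAR1), chr21:33266117-33266366 (plus strand, IL10RB), chr9:4984140-4984389 (plus strand, JAK2) and chr19:10380573-10380822 (minus strand, TYK2). Capitals mark the letters GGGCGG (the GC box) and CCAAT on either strand.
IFNAR1: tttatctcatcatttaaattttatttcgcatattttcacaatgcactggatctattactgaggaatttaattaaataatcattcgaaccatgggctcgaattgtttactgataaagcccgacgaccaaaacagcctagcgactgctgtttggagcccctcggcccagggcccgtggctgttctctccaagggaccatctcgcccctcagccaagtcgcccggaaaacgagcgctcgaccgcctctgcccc
IL10RB: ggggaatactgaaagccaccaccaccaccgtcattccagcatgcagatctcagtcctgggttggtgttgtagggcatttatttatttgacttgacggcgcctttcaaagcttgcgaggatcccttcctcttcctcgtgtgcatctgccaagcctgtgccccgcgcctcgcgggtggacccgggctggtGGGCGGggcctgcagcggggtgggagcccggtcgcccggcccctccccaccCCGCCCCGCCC
JAK2: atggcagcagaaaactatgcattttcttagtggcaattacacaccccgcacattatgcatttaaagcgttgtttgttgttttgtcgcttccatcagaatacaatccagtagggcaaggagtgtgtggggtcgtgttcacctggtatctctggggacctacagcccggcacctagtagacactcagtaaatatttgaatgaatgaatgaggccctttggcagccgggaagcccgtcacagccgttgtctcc
TYK2: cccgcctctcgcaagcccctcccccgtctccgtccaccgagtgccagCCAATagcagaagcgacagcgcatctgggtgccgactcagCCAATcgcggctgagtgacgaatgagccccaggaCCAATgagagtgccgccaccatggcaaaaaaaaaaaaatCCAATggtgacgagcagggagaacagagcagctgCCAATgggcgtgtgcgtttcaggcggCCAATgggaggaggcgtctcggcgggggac
IL10RB had 3 GC boxes, at 62, 11 and 6 bases before the start, of which the last 2 overlap. TYK2 had 6 runs of the letters CCAAT, at 203, 163, 129, 90, 56 and 30 bases before the start, and IFNAR1 and JAK2 had neither in these windows. In the windows shown, G and C made up 49.2% for IFNAR1, 65.2% for IL10RB, 48.4% for JAK2 and 62.0% for TYK2, against a median of 58.0% over all windows. Windows at other listed starts differed. One of IFNAR1 had 2 GC boxes and 64.8% G and C. A window of JAK2 had 1 GC box and 68.4% G and C, and the remaining JAK2 windows had none.

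The RefSeq promoter table held 14 windows for 7 of the 8 members, IFNAR2 having no entry. Neither the STAT binding letters TTCNNNGAA (the gamma activated site) nor the core of the interferon-stimulated response element (a pair of GAAA runs 2 bases apart) occurred in any of the 14 windows on either strand. Over all 35116 windows of the same length, 6.57% held the first and 3.02% the second. The GC box was in 6 of the 14 windows and in 42.6% of all windows, and CCAAT in 1 of the 14 and in 32.0% of all. These matches describe letters in the reference sequence only.

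In the spiky clone all 4 chromosome 21 receptor genes were lower than in the cystic clone, by 1.66-fold to 2.27-fold on average, and the IFNGR1 chain and the kinases JAK1 and TYK2, which are encoded elsewhere, overlapped between the clones in their brightest probe sets. JAK2, at a low signal, was higher in the spiky clone. Because the genes were picked for this contrast, their differences between the clones are given as a description, without a test. In a bulk sample, fewer cells that express a gene and less of its RNA in each cell cannot be told apart.

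**Figure D1:**
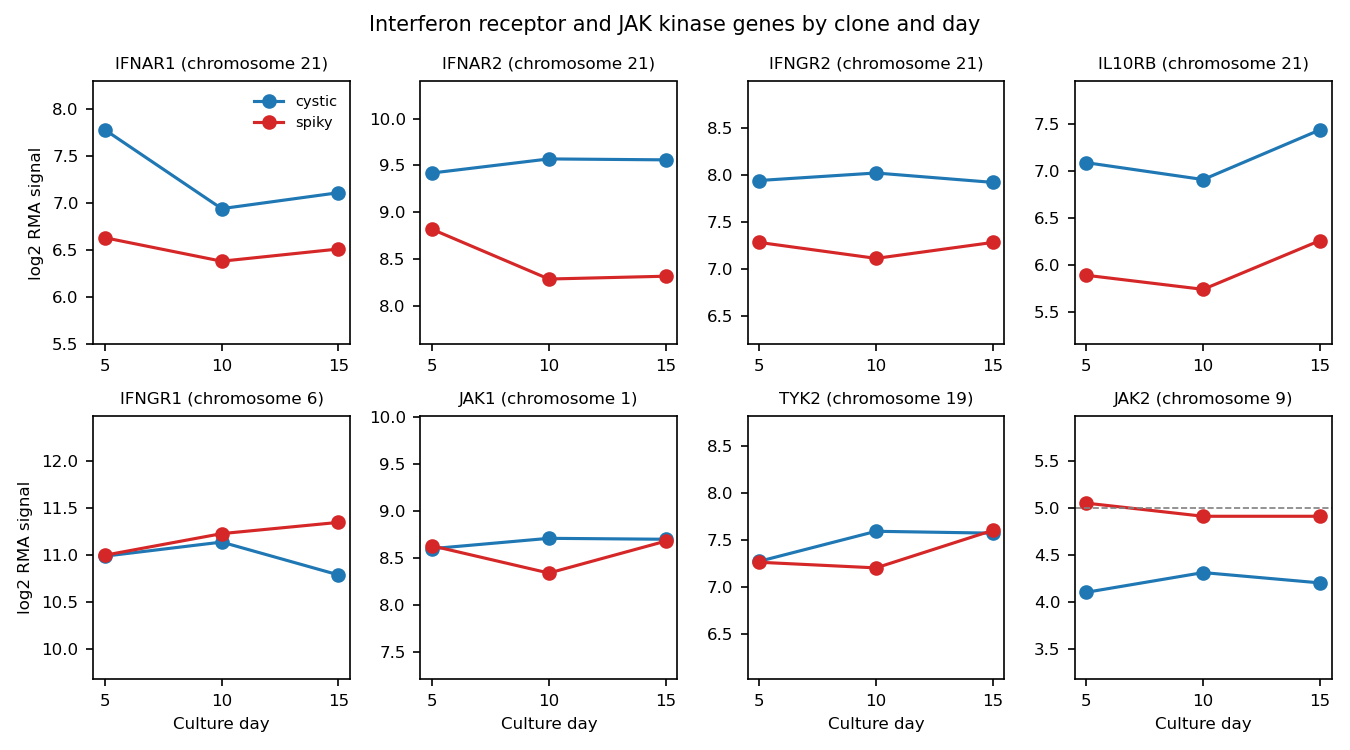
Log2 RMA signal (y axis) of the brightest probe set of each of the 8 genes against culture day (x axis), 1 point per array, with the cystic clone in blue and the spiky clone in red; every panel spans the same log2 range and the dashed line marks log2 5. The spiky points lie below the cystic ones at all 3 days for the 4 chromosome 21 genes, the clones overlap for IFNGR1, JAK1 and TYK2, and the spiky points lie above for JAK2.

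IFNAR1, the chain of the type 1 interferon receptor that carries TYK2, has 4 probe sets. Its brightest, 225661_at, read 7.78, 6.94 and 7.11 in the cystic clone on day 5, 10 and 15, and 6.63, 6.38 and 6.51 in the spiky clone. Every spiky array was below every cystic array, and the gap was widest on day 5, at -1.15, against -0.56 on day 10 and -0.61 on day 15. The means were 7.28 ± 0.44 and 6.51 ± 0.13 (SD, n = 3 each), a difference of -0.77 or 1.71-fold. A second probe set, 225669_at, read 7.33, 6.90 and 7.12 in the cystic and 6.47, 6.12 and 6.22 in the spiky clone, with a steadier difference of -0.85 ± 0.07 (SD over the 3 days). Probe set 204191_at also kept the clones apart, at -0.57 ± 0.26. Probe set 236478_at did not: its cystic values of 6.77, 6.32 and 5.79 overlapped the spiky values of 6.12, 5.67 and 5.68, and its difference shrank to -0.10 on day 15.

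IFNAR2, the other chain of that receptor, which carries JAK1, showed its larger gap on the later days. Probe set 204786_s_at read 9.42, 9.57 and 9.56 in the cystic clone and 8.82, 8.29 and 8.32 in the spiky clone on day 5, 10 and 15. The cystic arrays were close to each other, and the difference went from -0.60 on day 5 to -1.27 and -1.23. The means of 9.51 ± 0.08 and 8.48 ± 0.29 (SD, n = 3 each) stood 2.05-fold apart. The other probe sets had the same sign with smaller gaps: 204785_x_at, of a design that can also bind related transcripts, differed by -0.52 ± 0.16, and 227125_at by -0.65 ± 0.58 with -1.31 on day 10 and -0.22 on day 15. RefSeq also lists a read-through gene, IFNAR2-IL10RB, whose transcripts could add to the signal of either gene.

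IFNGR2, the chain of the interferon gamma receptor that brings in JAK2, has 1 probe set, 201642_at. It read 7.94, 8.02 and 7.92 in the cystic clone and 7.28, 7.11 and 7.28 in the spiky clone. The arrays of a clone were tightly grouped and the clones far apart relative to that spread. The means were 7.96 ± 0.05 and 7.23 ± 0.10 (SD, n = 3 each), the daily differences -0.65, -0.91 and -0.63, and the fold 1.66.

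IL10RB, the shared chain of the interleukin 10, interleukin 22 and interferon lambda receptors, had the largest average gap of the 8 genes on the log2 scale. Probe set 209575_at read 7.09, 6.91 and 7.44 in the cystic clone and 5.89, 5.74 and 6.26 in the spiky clone. Both clones dipped slightly on day 10 and were highest on day 15, so the distance between them hardly moved: -1.20, -1.17 and -1.18. The means were 7.15 ± 0.27 and 5.96 ± 0.27 (SD, n = 3 each), a 2.27-fold difference.

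IFNGR1, the chain that binds interferon gamma and carries JAK1, is on chromosome 6. Probe set 202727_s_at read 10.99, 11.14 and 10.79 in the cystic clone and 11.00, 11.23 and 11.35 in the spiky clone. The clones were alike on day 5 and the spiky one was higher only by day 15, with differences of 0.01, 0.08 and 0.56. The means of 10.97 ± 0.18 and 11.19 ± 0.17 (SD, n = 3 each) overlapped. Probe set 211676_s_at gave the same course, with a mean difference of 0.13 ± 0.33 and 0.51 on day 15. The dimmer 242903_at did not: it differed by 0.46, 0.08 and 0.66, with its cystic day 5 array under log2 5. Subtracting the IFNGR1 difference from that of its partner IFNGR2 left -0.67, -0.99 and -1.19 on the 3 days, or -0.95 ± 0.26 (SD). The ratio of the IFNGR2 signal to the IFNGR1 signal was thus lower in the spiky clone at each day.

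The chains of the type 1 receptor were lower together, though not by the same amount at each day. The IFNAR1 difference minus the IFNAR2 difference was -0.55 on day 5, 0.71 on day 10 and 0.63 on day 15, a mean of 0.26 ± 0.71 (SD) that is smaller than its own spread. Set against its kinase TYK2, IFNAR1 was lower in the spiky clone at each day, at -1.14, -0.18 and -0.64. IFNGR2 set against JAK1 gave the more even values of -0.69, -0.54 and -0.62.

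JAK1, which serves the type 1, gamma and lambda interferon receptors and many others, is on chromosome 1 and has 5 probe sets. Probe set 201648_at read 8.60, 8.71 and 8.70 in the cystic clone and 8.63, 8.34 and 8.68 in the spiky clone. Only the day 10 spiky array was apart from the rest, and the means of 8.67 ± 0.06 and 8.55 ± 0.19 (SD, n = 3 each) overlapped. Probe set 1552610_a_at read lower in the spiky clone on all 3 days, at -0.17 ± 0.06 on average, with a gap of 0.03 between the lowest cystic and the highest spiky array. Probe set 1552611_a_at gave 0.07 ± 0.33. The 2 dim probe sets, 239695_at and 240613_at, had means of 4.71 and 3.97 and overlapped.

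TYK2, the kinase bound by IFNAR1 and IL10RB, is on chromosome 19 with 1 probe set, 205546_s_at. It read 7.27, 7.59 and 7.57 in the cystic clone and 7.26, 7.20 and 7.60 in the spiky clone. The clones matched on day 5 and 15 and parted by -0.39 on day 10. The mean difference of -0.12 ± 0.23 (SD) was smaller than its spread. TYK2 and JAK1 had nearly equal differences, which were 0.04, 0.02 and -0.05 apart on the 3 days (JAK1 minus TYK2).

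JAK2, the kinase of IFNGR2, lies on the short arm of chromosome 9 and was dim. Probe set 205842_s_at read 4.10, 4.31 and 4.20 in the cystic clone and 5.05, 4.91 and 4.91 in the spiky clone. Every spiky array was above every cystic array, by 0.95, 0.60 and 0.71 on the 3 days, but only 1 of the 6 arrays reached log2 5, so no fold is given and JAK2 was not among the genes tested. Probe sets 1562031_at and 205841_at, dimmer still, had the same sign at all 3 days, with mean differences of 0.59 ± 0.18 and 0.52 ± 0.32 (SD).

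**Figure D2:**
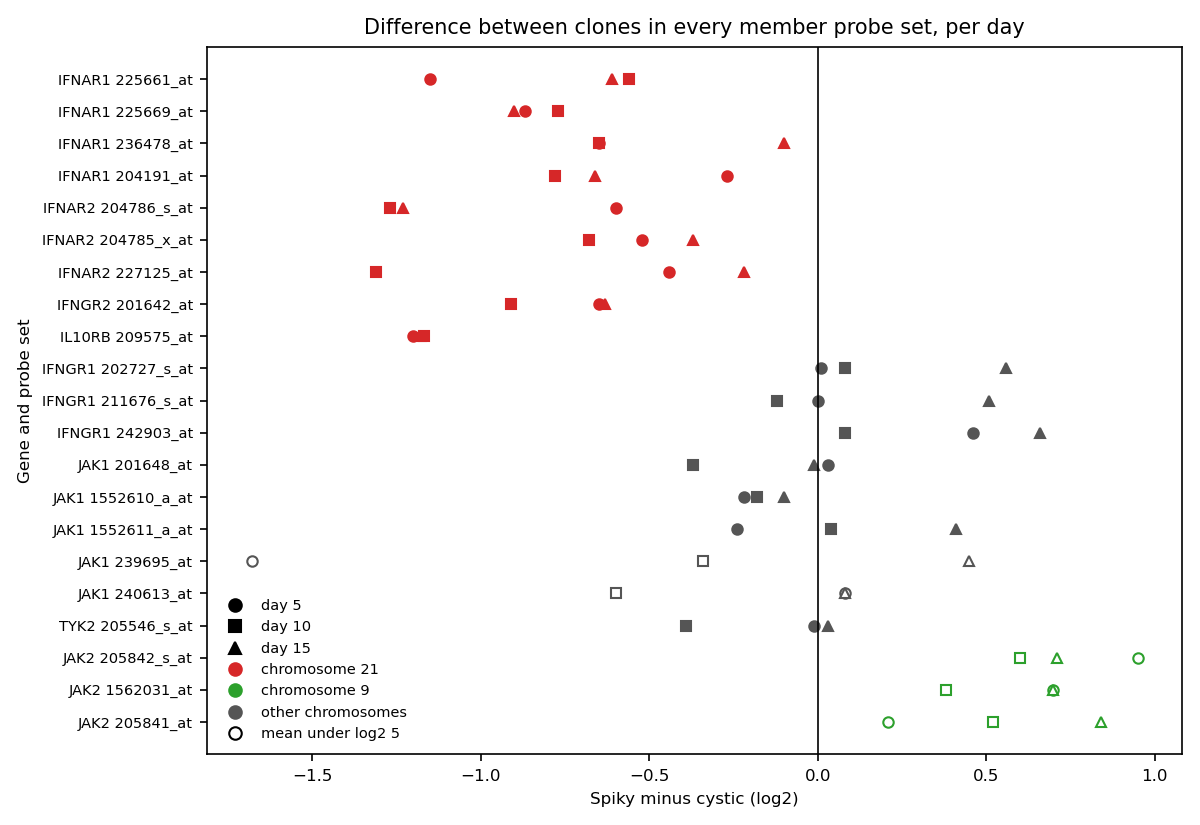
Spiky minus cystic difference in log2 signal (x axis) for each of the 21 probe sets (y axis), with circles for day 5, squares for day 10 and triangles for day 15; open symbols are probe sets with a mean under log2 5. All 27 points of the chromosome 21 probe sets (red) lie below 0, the 9 points of JAK2 (green) lie above 0, and the points of the other genes (grey) lie on both sides.

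Over all probe sets the split by chromosome was complete in sign for chromosome 21. The 27 daily differences of its 9 probe sets were all negative, from -1.31 to -0.10, and 8 of the 9 probe sets kept the clones apart, 236478_at of IFNAR1 being the one that did not. Among all 23948 probe sets with a mean of at least 5, the spiky clone lay wholly below the cystic one in 9.37% and wholly above in 5.79%, and was lower at all 3 days in 24.3%. The 7 probe sets of IFNGR1, JAK1 and TYK2 that reached the same mean had 9 of 21 daily differences below 0, a range of -0.39 to 0.66, and 1 that kept the clones apart. In the fit across 12317 genes (limma, Benjamini-Hochberg threshold of 0.05), 7.74% of all genes were called lower and 3.65% higher in the spiky clone, 11.4% in all. The 4 chromosome 21 members were among the lower calls and none of the 7 tested members among the higher, which follows from how they were chosen.

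Chromosome 21 as a whole was lower in the spiky clone, which had been seen before the members were picked. Its 136 tested genes had a median difference of -0.59 (quartiles -0.83 and -0.37), with -0.48, -0.66 and -0.57 on day 5, 10 and 15, against -0.03 over all tested genes. Within that chromosome IL10RB stood near the low end, with 9 of the 136 genes lower than it, and IFNAR2 had 18 lower. IFNAR1 and IFNGR2 lay nearer the middle, with 39 and 46 genes lower. Measured from the chromosome 21 median, the members differed by -0.60 (IL10RB), -0.45 (IFNAR2), -0.19 (IFNAR1) and -0.14 (IFNGR2). IFNGR1, JAK1 and TYK2 lay on chromosomes with medians of -0.02, -0.03 and -0.05, while chromosome 9 had a median of -0.16 over 519 genes, opposite in sign to JAK2.

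The genes beside the members had differences of the same sign. They lie on the chromosomes whose shift entered the choice of members, in the same contrast, so their calls restate that shift and are given as a description. Of the 5 tested protein-coding genes on each side of the chromosome 21 cluster, 7 passed as lower in the spiky clone and none as higher. GART, an enzyme of purine synthesis, was lowest, at -1.05 (SE 0.12). CRYZL1 differed by -0.86, and DONSON, a DNA replication protein, by -0.84 (SE 0.09). SON, a splicing protein, had the smallest difference that passed, at -0.34. EVA1C and TCP10L, the farthest from the cluster on the IFNAR2 side, stood at -0.04 and -0.02 and did not pass; centring the arrays moved the median gene by more than that, 0.08. Around JAK2, 8 of 10 neighbours passed as higher and none as lower, with a median of 0.96. They included ERMP1, an endoplasmic reticulum peptidase, at 1.16, RCL1, an enzyme of ribosomal RNA processing, at 1.04, and CD274, which encodes the immune checkpoint ligand PD-L1, at 0.85 (SE 0.19). PLPP6 and SPATA6L had the same sign, at 0.55 each, without passing.

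**Figure D3:**
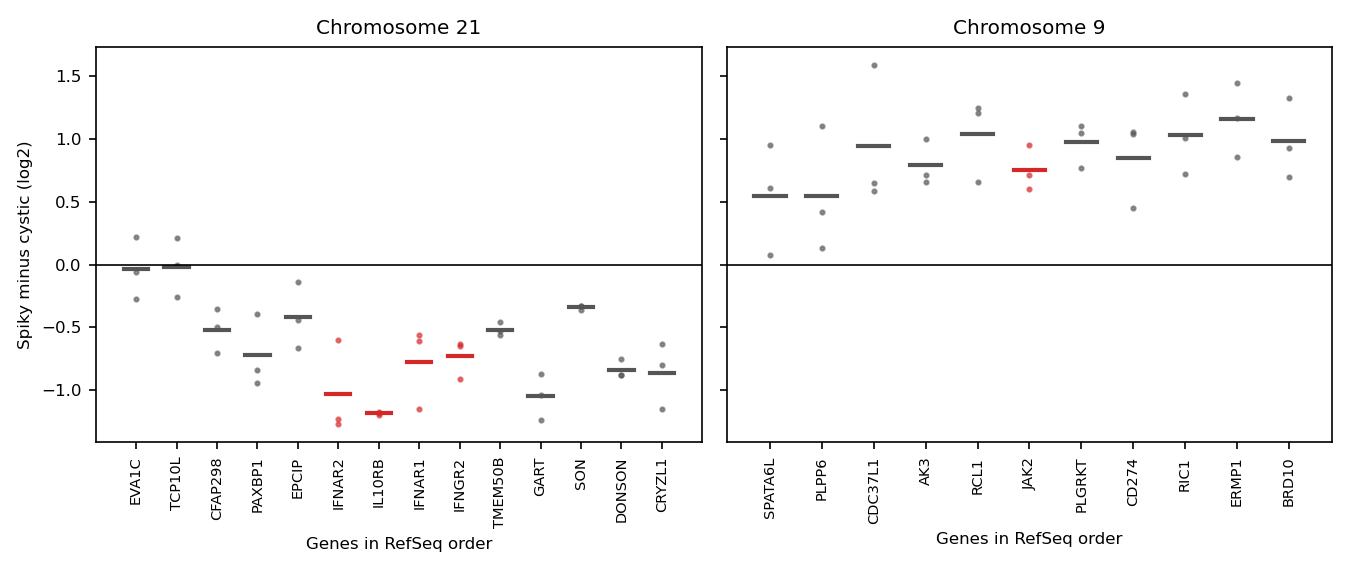
Spiky minus cystic difference in log2 signal (y axis) for the members (red) and the 5 tested protein-coding genes on each side of them (grey), in RefSeq order along chromosome 21 (left) and chromosome 9 (right). Points are the 3 days and bars their means, which run from -1.18 at IL10RB to -0.02 at TCP10L on chromosome 21 and from 0.55 to 1.16 on chromosome 9.

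Culture time was not used to choose the members, and its tests apply to them. With 1 probe set per gene, 0 of the 7 tested members passed between day 5 and day 15, against 32.3% of all genes, and their differences ran from -0.40 (IFNAR1) to 0.36 (IL10RB). None of the 7 had an unadjusted p under 0.05 in that contrast. Between day 5 and day 10, where 0.0162% of all genes passed, 0 of 7 passed and 1 had an unadjusted p under 0.05: IFNAR1 at -0.55 (SE 0.22, adjusted p = 0.336, limma), lower in both clones. Its size moved when an array was left out. Without the cystic or the spiky day 5 array it was -0.26 or -0.83, and without those of day 10 it was -0.39 or -0.70. For day 15 against day 5 the -0.40 became -0.11 or -0.68 without the same day 5 arrays. Without the cystic or the spiky day 15 array it became -0.27 or -0.53. Between day 10 and day 15, where 22.6% of all genes passed, 0 of 7 passed and 1 had an unadjusted p under 0.05: IL10RB at 0.52 (SE 0.20, adjusted p = 0.0875, limma), with 0.53 in the cystic and 0.51 in the spiky clone. The change with day was also compared between the clones, and 0.0% of all genes and 0 of the 7 members passed, each with an adjusted p of 0.999 (limma) and an unadjusted p above 0.05. The largest slope differences per 10 days were -0.63 for IFNAR2 and 0.55 for IFNAR1 and IFNGR1, with standard errors of 0.37, 0.54 and 0.28.

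Taken probe set by probe set, 2 of the 16 tested passed between day 5 and day 15, against 29.7% of all probe sets, and neither call was shared by another probe set of its gene. IFNGR1 probe set 242903_at read 4.56, 6.31 and 6.09 in the cystic clone and 5.01, 6.39 and 6.75 in the spiky clone. It was low on both day 5 arrays and higher on all later ones, at 1.63 as fitted for day 15 against day 5 (SE 0.24, adjusted p = 0.00104, limma), at least 2.66-fold with the day 5 array under log2 5 set to 5. Over the same days the brighter IFNGR1 probe sets 202727_s_at and 211676_s_at differed by 0.07 and -0.09 and did not pass. The same probe set was the 1 of 16 called between day 5 and day 10, at 1.56 as fitted (adjusted p = 0.0342, limma) and at least 2.53-fold by the same bound, against 0.271% of all probe sets. That call was lost without day 5 or day 10 of either clone, with an adjusted p of 0.32 and 0.242 without the cystic arrays and 0.13 and 0.057 without the spiky ones, and it was also lost without the filter on dim probe sets, without the variance trend and with day 5 and 10 compared across clones without the clone as a term (adjusted p = 0.108, 0.34 and 0.769, limma). The day 15 call held without each single array. IFNAR1 probe set 236478_at fell by 0.71 from day 5 to day 15 (SE 0.24, adjusted p = 0.0455, limma), with -0.99 in the cystic and -0.43 in the spiky clone. It was no longer called without the cystic day 5 or day 15 array or the spiky day 5 array (adjusted p = 0.272, 0.313 and 0.129, limma), nor without the filter on dim probe sets, without the variance trend or without the clone as a term (adjusted p = 0.0785, 0.0504 and 0.196, limma). The other IFNAR1 probe sets differed by -0.40, -0.23 and -0.01 without passing. Between day 10 and day 15, 0 of 16 passed, against 19.5% of all, and 2 had an unadjusted p under 0.05.

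A measure of RNA integrity moved with day as well. The 3′ minus 5′ difference of the ACTB control probe sets was 2.83, 3.18 and 3.28 in the cystic clone and 2.73, 2.74 and 3.10 in the spiky clone on day 5, 10 and 15. It was higher on day 15 than on day 5 in both clones and higher in the cystic clone at each day. That of GAPDH was 0.65, 0.79 and 0.63 in the cystic and 0.60, 0.63 and 0.49 in the spiky clone. Their part in the differences between days or clones was not tested.

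The genes whose course over the 6 arrays was most like a member's were found by the root mean square distance between log2 profiles, each centred on its own mean, among 12120 genes (12121 for JAK2). IFNGR2 was closest to PSPH, an enzyme of serine synthesis, at 0.032, then to HLCS, the chromosome 21 gene that attaches biotin to carboxylases, at 0.047, and to HYCC1 at 0.052. For IFNAR2 the nearest were GRTP1 (0.083), ADAM22 and UBAC2, and for IFNAR1 they were PDLIM1 (0.081), TNNC1 and SLC25A18. IL10RB had no gene as near, with S100A3 first at 0.12, then LINC02731 and HEG1. HLCS was the only one of these 12 on chromosome 21. IFNGR1 was nearest to SNX14 (0.062), ACBD5 and EIF2S2, JAK1 to LINC00926 (0.026), TTLL5 and GNB5, TYK2 to RMND1 (0.05), USP33 and ZNF292, and JAK2 to RPRD1A (0.087), LEP and SMIM20. For scale, a member's own root mean square variation ran from 0.128 (JAK1) to 0.631 (IL10RB).

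The ligands of these receptors were not measurable above the filter. All 102 values of the 17 genes with a probe set among 20 type 1 and type 3 interferons lay between 2.26 and 4.09. The 42 values of interferon gamma and the interleukin 10 family (7 of 7 genes) lay between 2.22 and 4.35. None of these values reached log2 5, and no difference between clones or days is drawn from them.

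Of 7 other receptors of the same family, the class 2 cytokine receptors, 4 were tested. Between the clones 1 passed as higher and 1 as lower in the spiky clone, against 3.65% and 7.74% of all genes. The median was 0.47 against -0.03 over all genes. F3, tissue factor, which starts blood clotting and shares the fold of the interferon receptors, was higher by 0.85 (SE 0.14, adjusted p = 0.00492, limma). IL22RA1, which pairs with IL10RB to bind interleukin 22, was lower, at -0.83 (SE 0.16, adjusted p = 0.0109, limma), with means of 7.38 ± 0.28 in the cystic and 6.56 ± 0.26 in the spiky clone (SD, n = 3). IFNLR1, which pairs with IL10RB to bind the interferon lambdas, differed by 0.09 without passing. From day 5 to day 15, 2 of the 4 passed as lower and none as higher, with a median of -0.55 against -0.11 over all genes, of which 21.9% passed as lower and 10.4% as higher. F3 fell by 1.40 and IFNLR1 fell by 0.78 (adjusted p = 0.000874 and 0.0146, limma), so the lambda chain declined in both clones, from 7.31 to 6.38 and from 7.25 to 6.61, while IL10RB did not pass. The IL22RA1 call was lost without the day 5 array of either clone, and so was 1 of the 2 calls over time. The F3 call between the clones was lost without the variance trend, and both calls between the clones when culture day was left out of the model.

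In a list of 25 genes, other receptor chains that use these kinases together with JAK3, 12 of the 23 with a probe set were tested. Between the clones 2 passed as lower and none as higher, against 7.74% and 3.65% of all genes, with a median of -0.04. IL11RA, the interleukin 11 receptor, was lower in the spiky clone, at -1.02 (SE 0.17). It counts among the 2 calls but lies on chromosome 9, which also entered the choice of members. Its difference is therefore given as a description. IL6ST, the gp130 chain shared by the interleukin 6 family, was lower as well, at -0.51 (SE 0.10, adjusted p = 0.0148, limma). From day 5 to day 15, IL11RA rose by 0.89 and JAK3, the kinase of the common gamma chain, by 0.79, and IL15RA fell by 0.65. The median was 0.09, and among all genes 10.4% rose and 21.9% fell. Leaving out the day 5 array of either clone removed both calls between the clones and the IL15RA call, and without the spiky one no gene of the list passed over time. Of the 2 calls between the clones, 1 was left without the day 10 array of either clone, without the variance trend or with the mean of all probe sets, and 0 when culture day was left out of the model.

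Of 15 STAT and IRF transcription factors, the step after the kinases, 12 had a probe set and 11 were tested. Between the clones none passed limma in either direction (3 of 11 at an unadjusted p under 0.05), and 9 of 11 were negative, with a median of -0.20. Under other settings 0 to 1 passed as lower and 0 as higher. STAT5A differed by -0.56 (adjusted p = 0.0766, limma). STAT4 was dim, at 5.92, 5.34 and 4.71 in the cystic and 4.72, 5.00 and 4.53 in the spiky clone, and its difference is given only as at least 1.25-fold lower (adjusted p = 0.161, limma). IRF9, the DNA-binding part of the factor that type 1 interferon activates, read 6.96, 6.56 and 8.17 in the cystic clone and 5.55, 6.61 and 8.03 in the spiky clone on day 5, 10 and 15. Both day 15 arrays were above all others, and IRF9 rose by 1.85 from day 5 to day 15 (SE 0.32, adjusted p = 0.00351, limma), 3.60-fold. IRF7, which drives interferon alpha transcription, rose by 0.63 (SE 0.20, adjusted p = 0.041, limma). No STAT or IRF gene passed as lower over time. The median was 0.18 against -0.11 over all genes, of which 10.4% passed as higher and 21.9% as lower. Without 1 array at a time the count of 2 that rose became 1 to 3.

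Of 21 negative regulators of JAK signalling, 19 were tested and none passed limma between the clones (2 at an unadjusted p under 0.05), with a median of -0.06. Under other settings 0 to 2 of them passed as higher in the spiky clone and 0 as lower. SOCS4 at -0.48 and CISH at 0.40 had the largest differences (adjusted p = 0.0905 and 0.211, limma). From day 5 to day 15, 5 of the 19 rose and 2 fell, against 10.4% and 21.9% of all genes, with a median of -0.07. SOCS3, an inhibitor of receptor-bound JAKs that STAT factors induce, rose by 1.82 (SE 0.23, adjusted p = 0.00104, limma), 3.54-fold. PIAS1, which restrains STAT binding to DNA, rose by 0.83 and SOCS7 by 0.59. USP18, which binds IFNAR2 and dampens type 1 signalling, fell by 0.72, and SOCS4 fell by 0.63 (adjusted p = 0.0343 and 0.0345, limma). Without 1 array at a time, 2 to 6 rose and 0 to 3 fell, the fewest in both directions without the spiky day 5 array.

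Of 20 genes that interferon gamma induces, 12 were tested. Between the clones 1 passed as higher and 2 as lower in the spiky clone, against 3.65% and 7.74% of all genes. The differences of 11 of 12 were negative, with a median of -0.23. The higher one was CD274, the neighbour of JAK2 on chromosome 9. That chromosome entered the choice of members, so the difference of CD274 is given as a description. PSMB9, a subunit of the immunoproteasome, was lower, at -0.54, and so was GBP2, an interferon-induced GTPase, at -0.98 (adjusted p = 0.00753 and 0.0405, limma). GBP2 differed mainly on the early days: it read 8.57, 8.15 and 9.29 in the cystic clone and 6.99, 6.82 and 9.26 in the spiky clone. From day 5 to day 15, APOL1, a lipid-binding defence protein, rose by 1.63 and GBP2 by 1.50, whereas GBP3, CD274, PSMB10 and WARS1 fell. The median was -0.13, and among all genes 10.4% rose and 21.9% fell. The calls of CD274 and of the 2 lower genes between the clones were all lost without the day 5 or the day 10 array of either clone, and 4 genes passed as lower without the day 15 array of either clone. The 2 lower calls were also lost without the variance trend, and 1 was left with centred arrays or with the mean of all probe sets. No call between the clones was left when culture day was left out of the model. Over time 1 rose and 0 fell without the spiky day 5 array.

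Of 36 genes that type 1 interferon induces, 30 were tested, and 12 passed as lower and none as higher in the spiky clone. The median was -0.60 against -0.03 over all genes, of which 7.74% passed as lower and 3.65% as higher. MX1 and MX2, antiviral GTPases that lie on chromosome 21 themselves, had the largest differences. Both count among the 12 calls. The shift of their chromosome in this contrast entered the choice of members, so their differences are given as a description. MX1 read 7.90, 7.15 and 7.68 in the cystic and 5.08, 4.92 and 5.90 in the spiky clone (-2.28, SE 0.21), at least 4.76-fold lower. MX2 read 6.54, 5.99 and 7.36 against 4.17, 3.86 and 5.70 (-2.05), at least 2.63-fold lower. The clones did not overlap in either gene. ISG20, an antiviral exonuclease on chromosome 15, was lower, at -1.11 (SE 0.14, adjusted p = 0.0016, limma). Without MX1 and MX2, the only tested genes of the list on chromosome 21, 10 of 28 passed as lower and the median was -0.52. The 10 include RIGI, at -0.76, which lies on chromosome 9, a chromosome that also entered the choice of members. The median difference of the list was -0.70 on day 5, -0.57 on day 10 and -0.25 on day 15. Under other settings 0 to 2 genes of the list passed as higher in the spiky clone. The count of 12 was 6 without the cystic and 7 without the spiky day 5 array, 19 without the day 15 array of either clone, and 1 when culture day was left out of the model.

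From day 5 to day 15, 5 of the 30 type 1 response genes rose and 3 fell, with a median of 0.13. Among all genes 10.4% rose and 21.9% fell, 32.3% in all. MX2 rose at least 1.7-fold, a bound because its spiky day 5 array lay under log2 5, IFI6, a mitochondrial survival protein, rose by 0.76 and BST2, the tethering factor tetherin, by 0.72 (adjusted p = 0.0066, 0.0076 and 0.007, limma). HERC6 fell by 0.88, IFIT5 by 0.94 and HERC5, the enzyme that attaches ISG15, by 0.64 (adjusted p = 0.00269, 0.0188 and 0.0303, limma). None of the 8 was called without the spiky day 5 array.

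**Figure D4:**
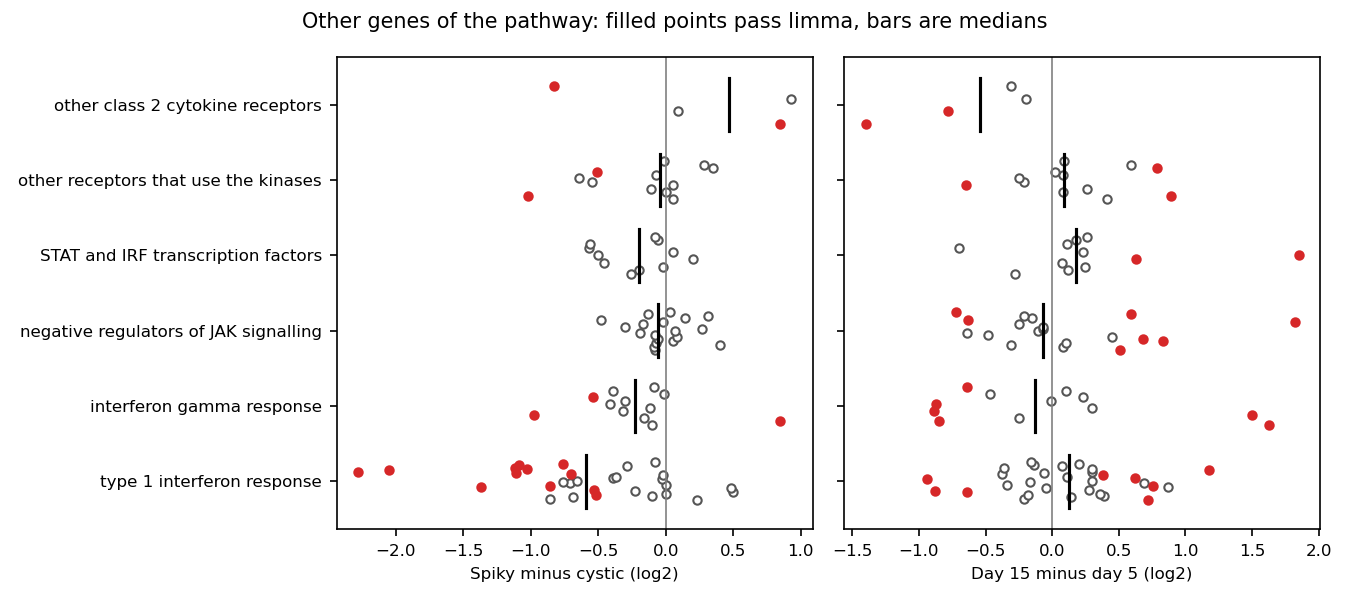
Log2 differences (x axes) of the tested genes of 6 pathway lists (y axis) between the spiky and cystic clones (left) and between day 15 and day 5 (right). Each point is a gene, red where it passes limma at an adjusted p of 0.05, and black bars are list medians, the lowest of which on the left is that of the type 1 interferon response at -0.60.

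The cells were checked against markers of the labelled tissue and of cells that a sample could also hold. Epithelial EPCAM (11.63 to 11.86) and KRT18 (12.00 to 12.79) were bright on every array, and 6 of 10 epithelial markers had a mean of at least 5. The intestinal markers were split: VIL1 (6.49 to 8.10) reached that mean, whereas KRT20, LGALS4, CDX2 and CDH17 did not. CDX2 still read 5.14 on the cystic day 15 array and 5.01 on the spiky day 5 array. Of 10 leukocyte markers 4 reached that mean (CSF1R, CORO1A, CD3D and LCP1), and the mean over the list was higher in the cystic clone (4.24 to 4.52) than in the spiky clone (3.92 to 4.18), the direction that the type 1 response list also took. LCP1, which lies on chromosome 13, read 6.31, 5.59 and 5.64 in the cystic and 4.28, 4.32 and 4.57 in the spiky clone on day 5, 10 and 15. CSF1R read 6.67, 5.76 and 5.87 against 4.95, 4.82 and 5.74. Both were higher in the cystic clone at each day. CD3D lay between 5.08 and 5.28, CD3E between 2.63 and 3.22 and PTPRC, carried by nearly all leukocytes, between 2.68 and 3.25. The mean over the list includes 6 markers whose own mean was under log2 5. Of these, PTPRC and MS4A1 went the other way on day 10 and 15, when they were higher in the spiky clone. The part of these markers in the differences between the clones was not tested. Fibroblast markers reached the mean of 5 in 3 of 10, with a list mean of 4.27 to 4.60 in the cystic and 4.26 to 4.48 in the spiky clone. The brightest, COL1A1, a chain of type 1 collagen, read 6.50, 7.02 and 8.12 in the cystic and 6.41, 6.40 and 7.54 in the spiky clone on day 5, 10 and 15, so it was highest on day 15 in both, like IRF9, SOCS3 and APOL1. From day 5 to day 15, FAP and LUM went the other way in both clones, and THY1 did so in the spiky clone. These lay under log2 5 on every array. The rest of the fibroblast list was higher on day 15 than on day 5 in both clones. The part of COL1A1 and the other fibroblast markers in the differences between days was not tested. Of 6 endothelial markers 1 reached a mean of 5 (ENG).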

How the data were processed

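Expression was measured on 6 Affymetrix arrays, 3 of a cystic and 3 of a spiky HCA-7 clone. The authors deposited log2 values made with RMA, per the submitters' processing notes, whose version and settings, like the genome build, were not given in the sources used. RMA shrinks differences between dim probe sets. The values run from 1.72 to 15.07 and array medians from 5.18 to 5.34. With arrays there is no read depth, and precision is limited by how few there are.

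Probe sets were named from the platform's gene table, updated through RefSeq (GRCh38.p14): 41097 had 1 symbol, 1801 several and 11777 none, and only those with 1 were used. The brightest probe set stood for its gene, and the 12317 genes whose mean reached log2 5 entered the test. The same fit was run on 23948 probe sets. limma 3.58.1 (R 4.3.3) fitted clone and day as factors to all 6 arrays, with an intensity trend in the variances, two-sided tests and Benjamini-Hochberg adjustment at 0.05. Day is a factor of the design and served as the block: deviations of same-day arrays from their clone means correlated at 0.608, 0.496 and 0.719 across genes. A further fit took day as a number with its interaction with clone. The fit was tested on simulated data.

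The members and lists were chosen with earlier results of these data known. Named were all members, their 5 tested neighbours on each side, the 3 genes with the nearest profiles, and per list and contrast the genes of smallest p among those that passed, up to 3 in each direction (or the 2 largest differences where none passed). IFNLR1 between the clones, PSMB10 over time and unpassed neighbours of a named gene are also given. A fold is given as "at least" where the dimmer side had a value under log2 5, which was then set to 5. Alternatives covered the filter, array scaling, which probe set stands for a gene, the trend in variances, the block and each array left out. Figures were drawn with matplotlib 3.10.9.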

Additional observations from a re-analysis of the deposited data

How the results depend on the processing

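The 4 chromosome 21 members, chosen for this contrast, were lower in the spiky clone in all 56 fits under other settings, from -1.25 to -0.58. Many of these fits could not move the estimate. The filter on dim genes, the variance trend and the block leave it unchanged in this design. Leaving out either array of a day removes that day from the contrast, so both give the same value. The agreement is therefore no independent check. Choosing probe sets that do not end in _x_at or _s_at gave -0.65 for IFNAR2, and other array scalings gave -1.10 and -1.13 for IL10RB. Of 294 values for culture day in members, 5 crossed the threshold. IFNGR1 between day 5 and 15 became 0.54 (adjusted p = 0.0346, limma) with the mean of its probe sets, 1.63 (adjusted p = 0.00137) with the unique probe set and 0.33 (adjusted p = 0.0137) without the cystic day 15 array. Its difference between day 10 and 15 was -0.37 (adjusted p = 0.0139) without the spiky day 15 array, and that of IL10RB was 0.52 (adjusted p = 0.0414) with the mean of probe sets.

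Counts over all genes moved more. Spiky against cystic gave 1403 calls, 691 without the variance trend, 72 with no replicate block, and 507 to 2157 with 1 array left out. Of the 1403, 67.9% were lower, against 49.2% with arrays centred on their medians, a scaling that moved the median gene by 0.08. Day 15 against day 5 gave 3982 calls, 1457 with no replicate block and 761 to 4318 with 1 array left out, and 67.7% were lower, against 56.8% after quantile normalization. Day 15 against day 10 gave 2786, 1444 without the variance trend, 337 with no replicate block and 1019 to 3577 with 1 array left out, and 61.7% were lower, against 71.9% with centred arrays. Day 10 against day 5 gave 2 calls (1658 at an unadjusted p under 0.05), 0 without the filter, without the variance trend or with no replicate block, 19 with a minimum mean of 6, 1 with the mean of probe sets, 14 with unique probe sets, and 0 to 469 with 1 array left out. The slope difference gave 0 calls (309 at an unadjusted p under 0.05) and 0 to 33 with 1 array left out. The causes were not tested. JAK2, the ligands and 2 JAK1 probe sets were too dim to test.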
